A study of Mus musculus with 336 samples.

Results

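The subject here is the level difference between Bmal1 knockout and wild-type mouse skin fibroblasts, with a look at signalling, receptors, secreted factors and lineage identity. The 48 fibroblast columns of the deposited expression table were used, 24 from Bmal1-/- cells (KO) and 24 from wild-type cells (WT), out of 120 columns in the whole series. All cells carried the C57BL/6 background. Both lines were grown to confluence in six-well plates, given 100 nM dexamethasone for 15 min, washed and kept in constant darkness. Harvests began 48 h later and ran every 3 h for 3 days, so that each column is 1 genotype at 1 time point from CT00 to CT69 and rests on 3 sequencing runs. KO and WT columns were paired by time point. The labels give neither the body site, the sex nor the number of animals or clones behind each line, so p-values measure only the spread over time points of 1 culture line per genotype.

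BMAL1, encoded by Arntl, is a bHLH-PAS transcription factor that pairs with CLOCK, binds E-box motifs and drives the negative arm of the circadian clock (the PER and CRY proteins) together with the REV-ERB receptors and many output genes. Skin fibroblasts make the collagen and proteoglycan matrix of the dermis. They send and receive Wnt, TGF-beta, FGF, PDGF and cytokine signals, and they keep in culture a pattern of homeobox gene activity set by the body region they came from.

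The 24 columns of each genotype resembled each other more than those of the other genotype. Pearson's correlation of log2 values across genes was 0.905 to 0.937 within WT, 0.882 to 0.93 within KO and 0.803 to 0.841 between genotypes, and the first principal component, with 35.7% of the variance, separated the genotypes. Values are FPKM (fragments per length of transcript and mapped depth), which summed to 801247 to 867953 per column with no read totals, so the depth behind each value is unknown. The run names give 1 library number per genotype and separate lanes of 1 flow cell (lanes 2 to 4 for WT, 5 to 7 for KO), so genotype, cell line and library number cannot be told apart. Arntl itself read 8.79 to 11.9 FPKM in WT and 5.67 to 7.84 in KO, and whether the remaining reads cover the deleted part was not tested. The fibroblast markers Vim and Fn1 were high in both genotypes (1607 FPKM in WT and 1681 FPKM in KO for Vim), while Thy1 fell from 501 to 88 FPKM and Pdgfra from 444 to 159.8 FPKM. Col1a1, Col1a2 and Col3a1 were not analysed, because the estimate flag of the deposited table was not OK in every column. The summed level of markers of other cells was 9.2 to 15.3 FPKM in WT and 2.63 to 4.59 in KO for keratinocytes, 6.6 to 13.1 and 1.92 to 4.29 for endothelium, and 6.38 to 9.89 and 7.36 to 13.1 for macrophages and leukocytes. It was higher for smooth muscle and pericytes in both genotypes, for Schwann and neural cells in WT and for adipocytes in KO. Those sums are given beside the results they move with. Trp63 carried most of the keratinocyte sum of WT, with medians of 11 FPKM in WT and 0.344 in KO. Krt5, Krt14, Krt15, Dsp and Epcam had medians near 0 in both genotypes. Cdh1 went the other way, with 0.125 FPKM in WT and 1.76 in KO. Krt1, Dsg3, Tyr, Myod1 and Myf5 were listed at 0 in all columns.

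Of 15065 genes tested (mean of 1 FPKM or more), 937 were called higher in KO, which is 6.22% of genes, and 1479 were called lower, 9.82%. Together these are 16% of the genes tested. A call needed an adjusted p under 0.05 in limma and a KO minus WT difference of at least 1 on the log2(FPKM + 1) scale, which understates the change of genes at low levels. The median difference over all genes was -0.04. The calls were made on these same 24 time points, so counts by time point describe them and are no separate check. KO was above WT at all 24 time points for 802 of the 937 higher genes, and below it at all 24 for 1387 of the 1479 lower genes. The 2 genotypes' ranges over 24 time points did not overlap for 760 and 1312 of them, and for 5369 of all genes tested, or 35.6%. Genes not called could also lie on 1 side at all 24 time points, such as Smo with a difference of 0.26. Their share over all genes was not counted. Below, differences are given ± SE, and a series of 3 values for 1 genotype is its lowest, median and highest over the 24 time points. The genes called in fibroblasts below have adjusted p values of at most 7.06e-12, and their ranges do not overlap unless stated. Of 287 genes picked for naming, 71 overlap another tested gene (27 on the same strand, 52 on the opposite one), among them Eng with Fpgs, Alx4 with Ext2 and Ramp2 with Vps25. Whether reads were counted by strand is not given in the sources used here, so those values are less certain. In this bulk RNA, fewer cells of a type and less RNA per cell cannot be told apart. The gene lists below were drawn up with earlier results of these data known. The shares called in each therefore describe the list and are no test of it.

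The TGF-beta family showed differences at the levels of ligand, receptor and antagonist. Ligands of this family signal through paired serine kinase receptors, with coreceptors and secreted antagonists that set how much ligand reaches them. Among 10 ligands tested, 3 rose and 1 fell (median 0.54 against -0.04 for all genes). Gdf10 (chr14:33923587-33937983), also called Bmp3b, read 3.1, 4.47 and 7.06 FPKM in WT and 105, 118 and 143 in KO, a difference of 4.41 ± 0.06. Its lowest KO value lay far above its highest WT value. Tgfb1 rose from 7.68 to 17 FPKM (1.01 ± 0.03), a call that stands at the size limit and was missed without the second day (1.00, just under the limit). Inhba, the activin A subunit, fell from 35.1 to 9.62 FPKM (-1.75 ± 0.04). Of 21 receptors, antagonists and binding proteins, 7 fell and 1 rose, which is 33.3% and 4.76% of the list. The largest fall of the list was that of the coreceptor endoglin. Eng (chr2:32646595-32682669) read 54.7, 60.7 and 68.3 FPKM in WT and 0.362, 0.548 and 1.55 in KO, a difference of -5.29 ± 0.04, so that no KO column came near the WT range. The BMP antagonist Grem1 read 7.82, 11.3 and 14.1 FPKM in WT against 0.0155, 0.0767 and 0.173 in KO (-3.47 ± 0.04). The activin receptor Acvr2a fell from 13.4 to 4.9 FPKM. The latent TGF-beta binding proteins went opposite ways: Ltbp4 rose from 3.21 to 43.7 FPKM (3.47 ± 0.08) and Ltbp2 fell from 15.8 to 4.47 FPKM (-1.78 ± 0.09), the latter with overlapping ranges. The abundant follistatin-like gene Fstl1 was not called, with 938 FPKM in WT and 788 FPKM in KO.

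In the Wnt pathway, secreted ligands act on Frizzled receptors, R-spondins strengthen the signal through LGR receptors, and DKK and SFRP proteins block it. Of 8 ligands and R-spondins tested, 3 rose and 2 fell (median -0.01, and 0.04 after rescaling of the libraries by median-of-ratios factors). Rspo3 fell from 5.54 to 0.115 FPKM (-2.70 ± 0.09), and its receptor Lgr5 fell from 7.17 to 0.957 FPKM (-2.07 ± 0.05). The other ligands called averaged under 5 FPKM in the higher genotype, and the more abundant Wnt5a (13.4 FPKM in WT and 14.7 FPKM in KO) and Wnt16 (14.7 FPKM in WT and 12 FPKM in KO) were not called. Of 16 receptors, 2 rose and 1 fell, shares of 12.5% and 6.25%. The rise of Fzd4 was lost without the second or the third day (0.96 and 0.87). Fzd7 read 8.22, 8.87 and 10.2 FPKM in WT and 29.1, 31.4 and 34.3 in KO, a difference of 1.71 ± 0.02. Antagonists and feedback targets had 4 members that fell and 2 that rose among 9 (median -0.51). Neither rise was called without the third day. Dkk2 read 18.2, 23.5 and 28.4 FPKM in WT and 0.423, 0.791 and 1.22 in KO (-3.79 ± 0.06). Sfrp2 fell from 30.1 to 5.19 FPKM, Sfrp4 from 10.3 to 1.63 FPKM and the membrane inhibitor Apcdd1 from 36.2 to 11 FPKM. Sfrp1 and Dkk3, the most abundant members, were not called, with KO medians of 82.2 and 37.1 FPKM beside WT medians of 64.4 and 53.3.

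**Figure D1:**
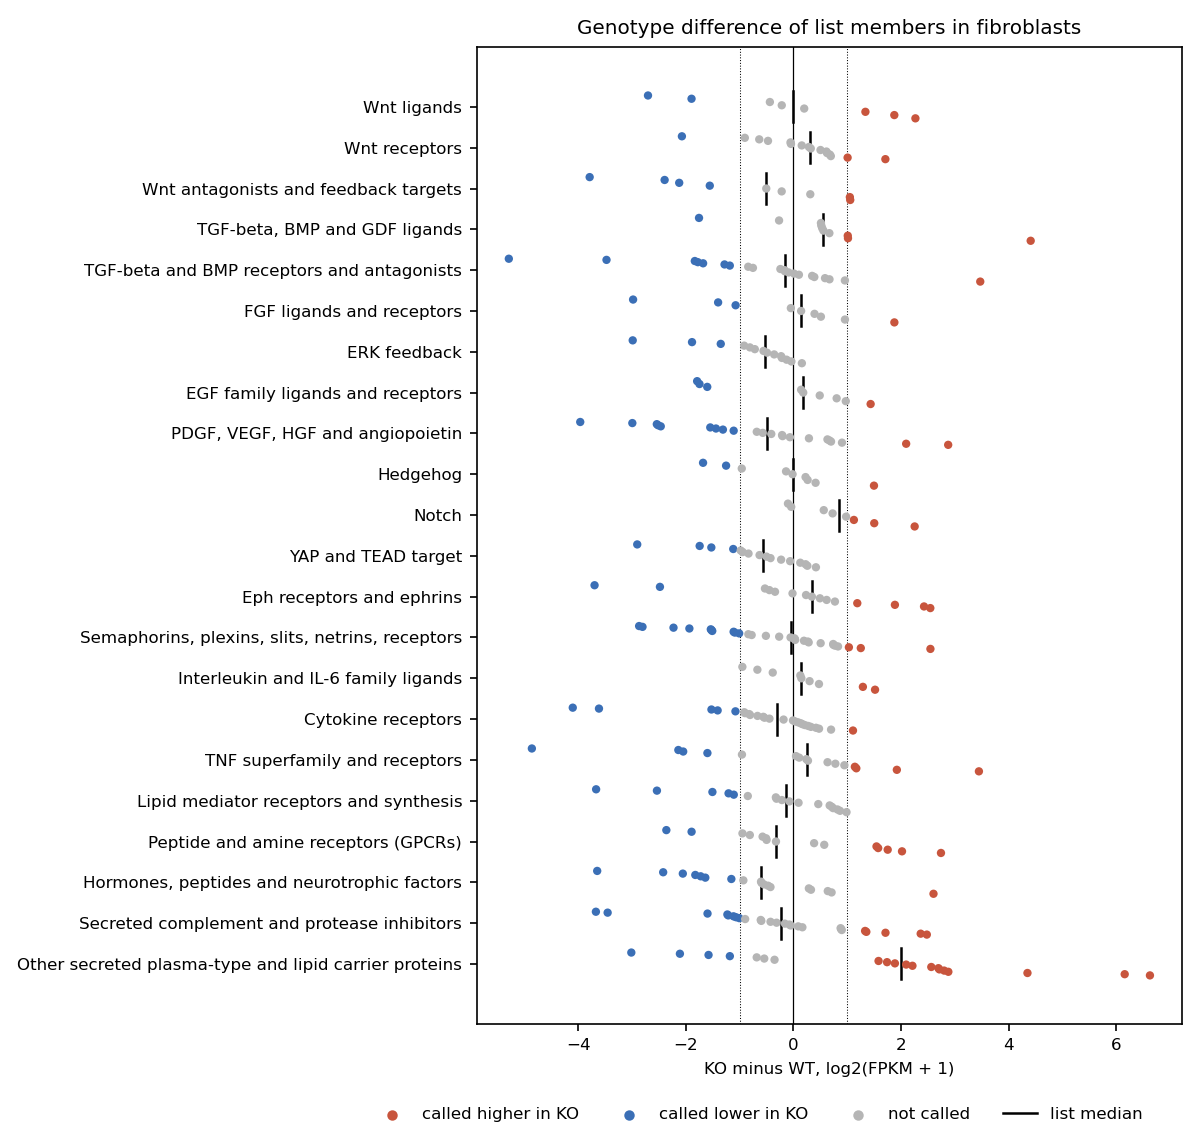
KO minus WT difference on the log2(FPKM + 1) scale for every tested member of 22 signalling, receptor and secreted-factor lists, with 1 point per gene. Red points were called higher in KO, blue points lower and grey points not called, the dotted lines mark a difference of 1 either way, and the black bar is the list median. Most lists hold points on both sides of 0. All lists were drawn up with earlier results of these data known. The secreted plasma-type list, with a median of 1.99, was drawn up with some members known to differ.

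Growth factor genes that act through receptor tyrosine kinases and ERK differed in several members. Of 9 FGF ligands and receptors tested, 3 fell and 1 rose. Fgf21, a hormone-like FGF, read 6.63, 8.97 and 11.9 FPKM in WT and 0.0481, 0.308 and 0.584 in KO (-2.98 ± 0.04). Fgf18 fell from 5.56 to 1.19 FPKM, with overlapping ranges, whereas Fgfr2 rose from 7.03 to 30.4 FPKM (1.88 ± 0.08), a row whose annotated span covers many other genes. The abundant Fgfr1 and the keratinocyte growth factor Fgf7 were not called (211 FPKM in WT and 200.5 FPKM in KO for Fgfr1, 68.1 FPKM in WT and 74.6 FPKM in KO for Fgf7). Of 14 genes that respond to or feed back on ERK, 3 fell (median -0.53). They were the ETS factors Etv4 (from 18.7 to 1.4 FPKM, -2.99 ± 0.11) and Etv5 (from 8.82 to 2.8 FPKM) and the inhibitor Spry1 (from 28.1 to 6.63 FPKM), while Spry2 was not called (46.4 FPKM in WT and 43.6 FPKM in KO). In the EGF family 3 of 9 genes fell and 1 rose. Errfi1, an inhibitor of EGFR, fell from 89.4 to 25.1 FPKM (-1.75 ± 0.04), the ligand betacellulin (Btc) rose from 2.07 to 7.27 FPKM, and Egfr itself was not called (47.1 FPKM in WT and 65.8 FPKM in KO). Without the first day, 2 members rose in place of 1 in both the FGF and the EGF list.

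Of 22 genes of the PDGF, VEGF, HGF and angiopoietin families, which act on vessels and mesenchymal cells, 9 fell and 2 rose (40.9% and 9.09% of the list, median -0.49). The angiopoietins split. Angpt4 read 24.6, 29.2 and 36 FPKM in WT and 0.634, 0.949 and 1.43 in KO (-3.96 ± 0.05). Angpt2 read 0.575, 1.07 and 2.32 FPKM in WT and 5.63, 14.2 and 36.6 in KO (2.88 ± 0.12), with the KO range the wider. Vegfc, a lymphatic growth factor, fell from 14.4 to 0.928 FPKM (-2.99 ± 0.05) and its coreceptor Nrp2 from 8.99 to 0.738 FPKM. Angptl4, a secreted inhibitor of lipoprotein lipase, rose from 16.7 to 77.8 FPKM (2.09 ± 0.02). Of the members not called, Vegfd and Vegfa were the most abundant (121 FPKM in WT and 108 FPKM in KO for Vegfa). Kdr, the VEGF receptor that also serves as an endothelial marker, fell from 9.63 to 0.737 FPKM, and it carried most of the endothelial marker sum of WT given above. The part of endothelial cells in these values was not tested.

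Hedgehog signalling ends in the GLI factors. Gli3 fell from 32.4 to 9.36 FPKM (-1.68 ± 0.06) and Gli2 from 5.81 to 1.76 FPKM, while the coreceptor Cdon rose from 64 to 177 FPKM. These are the 2 falls and 1 rise among 9 genes tested (median -0.02, and 0.05 after rescaling). Of 8 Notch genes 3 rose (37.5%, median 0.85). Dlk1, a non-canonical ligand known as an adipogenesis inhibitor, read 29.4, 37.1 and 49.8 FPKM in WT and 154, 177 and 214 in KO (2.25 ± 0.04), and the ligand Jag1 rose from 4.43 to 14.3 FPKM. Notch2 and the target Hes1 lay higher in KO at all 24 time points without reaching the size limit (0.56 ± 0.02 and 0.73 ± 0.05). Of 16 YAP and TEAD target genes 4 fell (25%, median -0.57). They were Ankrd1 (from 12.3 to 0.576 FPKM, -2.90 ± 0.10), the matricellular Ccn2 (from 27.9 to 7.08 FPKM) and Ccn1 (from 73.6 to 23.2 FPKM), and the receptor kinase Axl (from 565 to 263 FPKM). Smooth muscle and pericyte markers summed to 350 to 442 FPKM in WT and 141 to 235 in KO. Their part in these falls was not tested.

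Contact and guidance receptors differed in both directions. Of 15 Eph receptors and ephrins, 4 rose and 2 fell (26.7% and 13.3%, median 0.34). Epha3 read 8.14, 12.1 and 15.5 FPKM in WT and 0, 0.00426 and 0.067 in KO (-3.70 ± 0.05). Epha4 moved the other way, with 2.27, 3.6 and 4.95 FPKM in WT and 18.1, 23.5 and 34.1 in KO (2.43 ± 0.05), and the ephrin Efnb1 rose from 12.1 to 49.4 FPKM. Ephb2 fell from 17.7 to 2.13 FPKM. Of 29 semaphorins, plexins, slits, netrins and their receptors, 10 fell and 3 rose (34.5% and 10.3%, median -0.05, and 0.01 after rescaling). Slit2, a repulsive cue, fell from 77.2 to 10.9 FPKM (-2.81 ± 0.08) and the membrane-anchored Sema7a from 8.75 to 0.234 FPKM. Sema3f rose from 6.13 to 40.9 FPKM (2.54 ± 0.05). Netrin 1 (Ntn1) fell from 8.58 to 2.36 FPKM, and among the receptors Plxnd1 fell from 21.5 to 6.64 FPKM while Plxna2 rose from 6.47 to 17.4 FPKM.

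Interleukin signalling showed its largest differences at the receptor level. Of 9 ligands tested 2 rose: Il33 (from 5.46 to 17.6 FPKM, 1.52 ± 0.06), an alarmin, and Il16 (from 5.32 to 13.7 FPKM). Of 26 cytokine receptors and related proteins, 5 fell and 1 rose (19.2% and 3.85%, median -0.31). Il1rl1, which encodes the receptor of IL-33, read 49.6, 67.2 and 86.7 FPKM in WT and 1.81, 3.08 and 5.68 in KO (-4.10 ± 0.07). Ligand and receptor moved in opposite directions. Il6st, the gp130 subunit shared by the IL-6 family, was among the abundant receptor transcripts at 1005, 1220 and 1372 FPKM in WT and 348, 419 and 519 in KO (-1.52 ± 0.03). The IL-36 receptor Il1rl2 fell from 14.6 to 4.56 FPKM, and the IL-1 receptor antagonist Il1rn fell from 15.8 to 0.465 FPKM with a wide WT range of 4.3 to 50.9 FPKM. The growth hormone receptor Ghr rose from 81.4 to 176 FPKM (1.11 ± 0.02). Il17rc and Ifnar2 were not called.

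In the TNF superfamily, 4 of 16 members rose and 4 fell (25% each way, median 0.25). The neurotrophin receptor Ngfr had the largest fall, with 16.8, 32.9 and 39.9 FPKM in WT and 0.0155, 0.0964 and 0.247 in KO (-4.86 ± 0.06). Ngfr is also a Schwann cell marker, and the summed Schwann and neural list was 31.5 to 53.5 FPKM in WT and 5.12 to 9.23 in KO, carried by Ngfr and Tubb3. The part of such cells was not tested. Eda2r, a receptor for an ectodysplasin isoform, read 1.77, 2.48 and 2.96 FPKM in WT and 28.3, 37 and 41.7 in KO (3.45 ± 0.03). The death receptor Tnfrsf10b rose from 2.82 to 13.5 FPKM, and the TWEAK receptor Tnfrsf12a fell from 61.7 to 19.6 FPKM. The most abundant member, Tnfrsf1a, differed by 0.11 ± 0.04 and was not called.

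Receptors for peptides, amines and lipids showed several large differences. Of 15 peptide and amine receptors and their partners tested, 5 rose and 2 fell (33.3% and 13.3%, median -0.33). Agtr2, the type 2 angiotensin II receptor, read 50.8, 77.9 and 97.7 FPKM in WT and 6.36, 14.8 and 25.9 in KO (-2.36 ± 0.08). The KO values were the more scattered for their level, but the ranges stayed apart. The natriuretic peptide clearance receptor Npr3 rose from 4.56 to 21.6 FPKM (2.02 ± 0.03), the zinc receptor Gpr39 from 0.118 to 6.94 FPKM and the adrenergic receptor Adra1b from 0.899 to 5.28 FPKM. Ramp2, the adrenomedullin receptor subunit, fell from 32.4 to 7.48 FPKM, and the peptide Adm2 of the same hormone family fell from 15.5 to 2.04 FPKM. Of 18 lipid mediator genes 5 fell (27.8%, median -0.15). Enpp2, the autotaxin that makes lysophosphatidic acid, fell from 14.8 to 0.224 FPKM (-3.67 ± 0.03) and the lysophosphatidic acid receptor Lpar4 from 7.05 to 0.378 FPKM (-2.54 ± 0.03). The abundant receptor Lpar1 was lower in KO at all 24 time points without a call (-0.85 ± 0.02).

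Hormones, peptides and neurotrophic factors fell more often than they rose, with 7 falls and 1 rise among 18 (38.9% and 5.56%, median -0.60). Artn, a GDNF family ligand, read 8.98, 15 and 26.6 FPKM in WT and 0.0832, 0.307 and 0.912 in KO (-3.65 ± 0.12). Stanniocalcin 2 (Stc2) fell from 6.65 to 1.06 FPKM. The rise was that of pleiotrophin (Ptn), a heparin-binding growth factor, which read 312, 439 and 741 FPKM in WT and 2220, 2944 and 3391 in KO (2.60 ± 0.07) and so was among the abundant transcripts of the KO line.

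**Figure D2:**
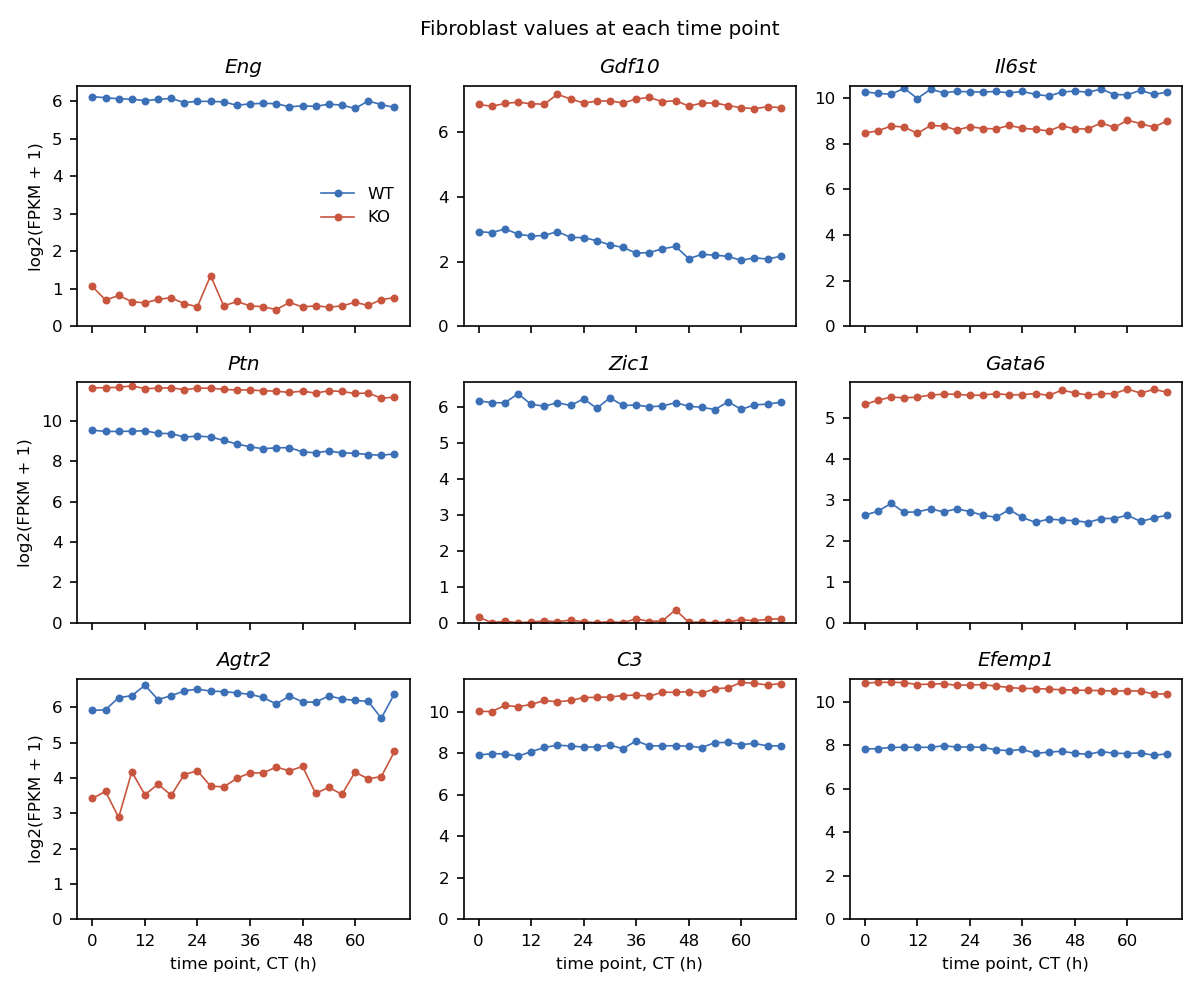
Values of 9 genes at each of the 24 time points on a log2(FPKM + 1) axis that starts at 0, with WT in blue and KO in red. The 2 genotypes stayed apart at every time point in all 9 panels, for example 54.7 to 68.3 FPKM for Eng in WT against 0.362 to 1.55 in KO, and C3 in KO ranged from 1032 to 2739 FPKM with its lowest values at the early time points.

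Lineage transcription factors included several that were abundant in 1 line and near 0 in the other. Of 37 mesenchymal bHLH, SOX, RUNX, FOX, GATA and zinc finger factors tested, 10 fell and 6 rose (27% and 16.2%, median -0.54). Zic1 (chr9:91358058-91365810), a zinc finger factor of dorsal structures, read 60.3, 66.4 and 82 FPKM in WT and 0, 0.0225 and 0.282 in KO (-6.04 ± 0.03). Its neighbour on the opposite strand, Zic4, fell from 8.24 to 0.0265 FPKM, and Ebf3 fell from 10.4 to 0.163 FPKM (-3.27 ± 0.03). The GATA factors rose: Gata6 read 4.47, 5.19 and 6.57 FPKM in WT and 39.5, 47 and 51.6 in KO (2.95 ± 0.03), and Gata4 0.094, 0.328 and 0.866 in WT and 7.68, 9.94 and 11.6 in KO (2.97 ± 0.05). Twist1, a general mesenchymal factor, was not called (71.6 FPKM in WT and 60.1 FPKM in KO). Among 26 T-box, paired and LIM homeobox factors, 8 rose and 5 fell (30.8% and 19.2%, median 0.02). Lhx8 read 10.5, 14.8 and 18.4 FPKM in WT and 0, 0.0505 and 0.335 in KO (-3.86 ± 0.05). Alx4 went the other way, with 0, 0.0135 and 0.0436 FPKM in WT and 6.12, 6.77 and 7.53 in KO (2.94 ± 0.02). En1, which marks a dermal fibroblast lineage of the trunk, fell from 17.4 to 3.05 FPKM (-2.16 ± 0.02), and the limb factor Shox2 fell from 45.5 to 10.9 FPKM. Prrx1 and Prrx2, which mark limb and skin mesenchyme broadly, were not called (-0.64 ± 0.02 and 0.57 ± 0.04).

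The Hox genes were looked at after these values had been seen, so they are given as a description with no test. Hox genes lie in 4 clusters, and their paralog number follows the head-to-tail order of their activity in the embryo. Of the 23 genes of paralogs 1 to 8, 18 had a median of 1 FPKM or more in WT and 18 in KO, 16 of them in both. Of the 7 genes of paralogs 9 and 10, 6 reached that level in WT and 1, Hoxd9, in KO. The 9 genes of paralogs 11 to 13 were below it in both. Hoxa9 (chr6:52223100-52231089) read 36.1, 43.8 and 50.1 FPKM in WT and 0, 0 and 0.353 in KO. Hoxa10 read 24.9, 26.9 and 30.3 in WT and 0 to 0.0867 in KO, and Hoxb9 30.5, 33 and 35.5 in WT and 0 to 0.215 in KO. Hoxc9 and Hoxc10 had WT medians of 22.6 and 42.4 FPKM and KO medians of 0.311 and 0.0281. Several Hox rows overlap another on the same strand: Hoxc8, Hoxc9 and Hoxc10 overlap Hoxc5, Hoxa5 and Hoxa6 overlap Hoxa3, and Hoxd4 overlaps Hoxd3. Values of these rows are less certain. In the Hoxa cluster the low KO values reached further forward, to Hoxa7 (13.8 in WT, 0.115 in KO) and Hoxa6 (5.84 and 0). Genes of lower paralog number went both ways. Hoxb2 read 0.714 FPKM in WT and 6.93 FPKM in KO and Hoxd4 4.07 FPKM in WT and 12.3 FPKM in KO, whereas Hoxa5 read 7.72 FPKM in WT and 1.08 FPKM in KO and Hoxb8 12.9 FPKM in WT and 2.56 FPKM in KO. Hoxb7 and Hoxc8 had close medians in both, with 13.9 and 13.7 FPKM for Hoxb7. Body site was not given for either line, so a difference in origin and the genotype cannot be told apart here.

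**Figure D3:**
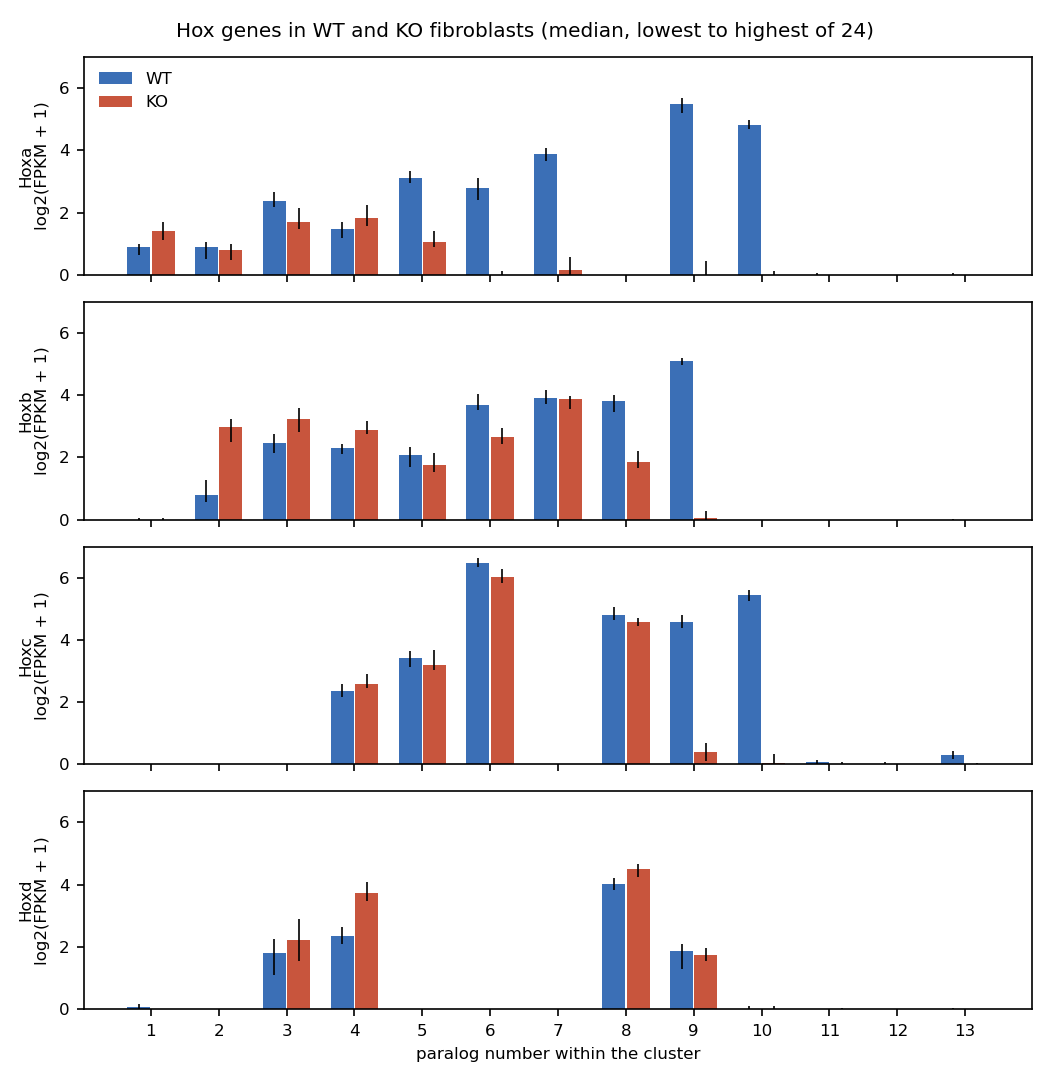
Median level of the 39 Hox genes on a log2(FPKM + 1) axis by cluster and paralog number, with WT in blue and KO in red and black lines from the lowest to the highest of 24 time points. Bars for paralogs 9 and 10 are tall in WT and near 0 in KO in the Hoxa, Hoxb and Hoxc clusters, while Hoxd9 has close values in both (WT median 2.66 FPKM, KO 2.35).

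The microRNA row Mir196a-1, which sits in the Hoxb cluster beside Hoxb9, showed the same pattern. It read 20.8, 97.9 and 174 FPKM in WT and was listed at 0 in all 24 KO columns. The row is short, so that few reads give a high FPKM, and poly(A) libraries can hold only precursor or host transcripts, not the mature microRNA. The mature miR-196a-5p at chr11:96265187-96265208 (plus strand, GRCm38.p6, from RefSeq) is shown because miR-196 microRNAs are known to target Hox transcripts, with the seed at bases 2 to 8 in capitals.
mmu-miR-196a-5p: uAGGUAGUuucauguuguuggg

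Nuclear receptors outside the clock, ligand-regulated factors for steroids, lipids and thyroid hormone, had 6 rises and 4 falls among 25 (24% and 16%, median 0.49). Pparg, the adipogenic receptor, read 0.576, 0.941 and 2.48 FPKM in WT and 11.6, 14.7 and 20.5 in KO (2.97 ± 0.06). The oxysterol receptor Nr1h3 rose from 3.07 to 10.2 FPKM and the thyroid hormone receptor Thra from 56.7 to 131 FPKM (1.19 ± 0.02), although Thra overlaps the clock gene Nr1d1 on the opposite strand. The progesterone receptor Pgr fell from 5.66 to 0.065 FPKM (-2.54 ± 0.05). Nr4a2 fell from 12.3 to 1.48 FPKM but with overlapping ranges, and 1 KO time point lay above its WT partner. Of 9 adipocyte genes 3 rose and 2 fell (median 0.11, lowest -1.71). The falls included Cebpa (from 11.1 to 5.3 FPKM, -1.1 ± 0.07), a call near the size limit. Lipoprotein lipase (Lpl) rose from 13.3 to 66.8 FPKM (2.21 ± 0.06), and the lipid droplet gene Plin2 was not called (116 FPKM in WT and 98.5 FPKM in KO). The summed adipocyte markers, a list that includes Pparg, were 1.19 to 2.82 FPKM in WT and 15 to 24.3 in KO. Pparg itself carried most of the KO sum, and Fabp4 rose from 0.72 to 3.2 FPKM. Lep was listed at 0 in all columns, and Adipoq, Plin1 and Cidec were near 0. The part of adipocytes in these values was not tested.

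Markers that divide dermal fibroblasts into lineages differed in most members. Of 16 tested, 8 fell and 4 rose (50% and 25%, median -1.02). Cthrc1, a secreted collagen-modifying protein, read 63.5, 82 and 108 FPKM in WT and 0.118, 0.597 and 3.97 in KO (-5.60 ± 0.08), and the imprinted hydrolase-like gene Mest fell from 98 to 14.1 FPKM (-2.51 ± 0.05). Pi16, a marker of adventitial fibroblasts, rose from 2.12 to 24 FPKM (3.06 ± 0.04), and the complement regulator Cd55 rose from 6.75 to 90.3 FPKM (3.50 ± 0.04). Cd34 and Ly6a, abundant in both, were not called (0.47 ± 0.02 and -0.97 ± 0.05). Of 12 tendon and cartilage genes 4 fell and 3 rose (median -0.21). Cilp, a cartilage matrix protein, read a median of 116 FPKM in WT and 0.605 in KO (-6.25 ± 0.04), and tenascin C (Tnc) fell from 78.7 to 8.1 FPKM (-3.14 ± 0.04). The small proteoglycan fibromodulin (Fmod) rose from 11.1 to 155 FPKM (3.55 ± 0.03). Of 8 bone and mineralization genes 4 fell and 2 rose (median -1.01). Osteopontin (Spp1) read 591, 677 and 892 FPKM in WT and 11.9, 14.7 and 24.1 in KO (-5.42 ± 0.03). Mgp, an inhibitor of calcification, rose from 151 to 646 FPKM (2.14 ± 0.03), and Phex rose from 0.483 to 14 FPKM.

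Matrix and adhesion genes also split. Of 21 proteoglycans, 7 fell and 4 rose (33.3% and 19%, median -0.68). Decorin (Dcn) read 772, 1082 and 1175 FPKM in WT and 2731, 3874 and 4636 in KO (1.86 ± 0.02), whereas the related biglycan (Bgn) was not called (2374 FPKM in WT and 2005 FPKM in KO). The glypicans Gpc1 and Gpc3, membrane coreceptors for growth factors, fell from 35 to 1.5 FPKM and from 6.7 to 0.0174 FPKM. Of 27 elastic fibre and basement membrane genes, 9 fell and 4 rose (33.3% and 14.8%, median -0.41). The fibulin family gene Efemp1 read 185, 217 and 251 FPKM in WT and 1310, 1590 and 1903 in KO (2.90 ± 0.02), and the crosslinking enzyme Lox rose from 430 to 1240 FPKM (1.52 ± 0.05). The microfibril genes Mfap4, Fbn2 and Mfap5 fell (from 83.8 to 8.79 FPKM for Mfap4), while Fbln2 and Efemp2 differed by -0.11 ± 0.05 and 0.03 ± 0.05. Of 16 integrins 5 fell and 1 rose (31.2% and 6.25%, median -0.74). Itga11, the collagen-binding alpha chain, read 61.3, 81.1 and 92.4 FPKM in WT and 1.48, 2.66 and 4.96 in KO (-4.42 ± 0.04). Itgb3 rose from 6.12 to 14.1 FPKM, and the common beta chain Itgb1 was lower in KO at all 24 time points below the size limit (-0.71 ± 0.01). Of 15 cadherins and adhesion molecules 4 fell and 1 rose, among them Ncam1, which fell from 70.5 to 31.6 FPKM (median -0.04, and 0.02 after rescaling). The rise in this list was not called without the first day.

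Ion channels and gap junction genes had 7 falls and 3 rises among 20 (35% and 15%, median -0.53). The water channel Aqp1 read 38, 43.5 and 51.9 FPKM in WT and 0.267, 0.519 and 0.852 in KO (-4.88 ± 0.05). Connexin 43 (Gja1), the main gap junction protein of fibroblasts, fell from 147 to 12.2 FPKM (-3.48 ± 0.05). The potassium channels Kcnj15, Kcnn4 and Kcnk2 fell as well (-4.56 ± 0.05, -3.39 ± 0.10 and -2.22 ± 0.08). The calcium channel Cacna1g rose from 15 to 62.9 FPKM (1.99 ± 0.03). The mechanosensitive channel Piezo1 was not called (29.2 FPKM in WT and 38.9 FPKM in KO).

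Of 20 secreted plasma-type proteins tested, 13 rose and 4 fell (65% and 20%, median 1.99), in a list drawn up with Trf and Agt known to differ. The phospholipid transfer protein Pltp read 4.39, 7.33 and 10.1 FPKM in WT and 97, 171 and 251 in KO (4.35 ± 0.06), although it overlaps Ctsa on the opposite strand. The scavenger receptor family gene Scara3 rose from 0.382 to 9.36 FPKM (2.88 ± 0.02). The falls included the lipase Lipg (from 8.68 to 0.176 FPKM) and the iron-siderophore carrier Lcn2 (from 7.07 to 0.874 FPKM). Of 26 complement genes and protease inhibitors, 8 fell and 5 rose (30.8% and 19.2%, median -0.24). The central complement component C3 read 231, 326 and 388 FPKM in WT and 1032, 1745 and 2739 in KO (2.48 ± 0.06), and C2 rose from 16.2 to 56.8 FPKM (1.71 ± 0.03). Serping1, the inhibitor of C1, moved the other way, with 185, 269 and 302 FPKM in WT and 16.5, 21.6 and 36.4 in KO (-3.45 ± 0.04). The protease inhibitor Serpine2 fell from 30.3 to 10.1 FPKM (-1.60 ± 0.04). The abundant Serpinh1, a collagen chaperone, was not called (-0.60 ± 0.02).

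Of 24 clock genes tested, 6 were called lower and 2 higher in KO (25% and 8.33%, median -0.03, and 0.03 after rescaling). CLOCK and BMAL1 bind the E-box CACGTG, which reads the same on both strands. A promoter, taken as the 250 bases before the start of a gene (RefSeq, GRCm38.p6), was at hand for 20 of these genes. Of the 20, 8 were called. The motif was held by 5 of the 20, and 2 of those 5 were called. The 2 went opposite ways. Ciart, a clock repressor, fell from 3.62 to 0.959 FPKM (-1.23 ± 0.07), and Cry1 rose from 5.28 to 16.1 FPKM (1.44 ± 0.03). Ciart holds 3 copies, starting 116, 58 and 44 bases before the start (chr3:95882229-95882478, minus strand), and Cry1 holds 1, starting 60 bases before it (chr10:85185055-85185304, minus strand). Both are shown 5′ to 3′ with the motif in capitals, as the called clock genes that hold it.
Ciart: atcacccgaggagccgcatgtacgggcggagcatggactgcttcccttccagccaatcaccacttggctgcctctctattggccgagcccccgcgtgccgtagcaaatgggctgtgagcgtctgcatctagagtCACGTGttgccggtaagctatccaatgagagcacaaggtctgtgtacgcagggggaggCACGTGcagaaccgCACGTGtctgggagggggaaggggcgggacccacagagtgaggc
Cry1: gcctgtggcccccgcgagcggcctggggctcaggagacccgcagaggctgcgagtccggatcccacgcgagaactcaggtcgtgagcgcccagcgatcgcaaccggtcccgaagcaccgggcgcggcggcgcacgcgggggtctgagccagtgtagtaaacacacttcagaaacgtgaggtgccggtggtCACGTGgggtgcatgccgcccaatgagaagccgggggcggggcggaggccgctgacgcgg
The motif is in 6.02% of the 32851 promoters of the table and in 9.98% of 9375 tested genes with a promoter. It is in 9.58% of the 595 genes called higher, 8.81% of the 965 called lower and 10.2% of the 7815 not called. Called and uncalled genes thus held it at close shares. Only this exact motif in these 250 bases was counted. Nr1d1, Nr1d2, Per3 and Hlf, all called lower, held none there. The shares therefore do not tell which genes BMAL1 binds. Among the other clock genes called, Per3 fell from 4.58 to 1.37 FPKM and Timeless from 16.5 to 2.68 FPKM, and neither Clock nor Nfil3 reached the size limit (-0.70 ± 0.04 and -0.59 ± 0.03).

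The size of the difference depended on the day for many genes. The genotype by day test passed for 3252 genes, 21.6% of those tested. This test takes the time points as independent and does not model drift within a line. It passed for 307 of the 937 genes called higher (32.8%), where the difference widened from the first to the third day in 190 and narrowed in 117, and for 551 of the 1479 called lower (37.3%), where it widened in 340 and narrowed in 211. Among the 8 genes with the smallest p, Fmo1, a flavin monooxygenase, widened. Its KO minus WT difference was 1.45 on the first day, 2.03 on the second and 2.71 on the third (adjusted p = 1.19e-08 in limma), as its mean rose in KO from 77.8 ± 7.46 to 135 ± 17.8 FPKM (SD over 8 time points) and declined in WT from 27.8 ± 2.60 to 19.7 ± 1.59. Afap1l2, an adaptor of the SRC kinase, changed sign, with 0.80 on the first day, 0.35 on the second and -0.21 on the third (adjusted p = 1.46e-08). Several signalling genes also shifted, and the following were chosen after their values were seen. Rspo3 narrowed (-3.25 on the first day, -2.63 on the second and -2.23 on the third, adjusted p = 5.08e-08), as did Angpt2 (3.45 on the first day, 2.93 on the second and 2.24 on the third, adjusted p = 2.05e-05) and Il1rn (-4.55 on the first day, -3.53 on the second and -2.76 on the third, adjusted p = 1.7e-06). Ankrd1 widened (-2.28 on the first day, -3.02 on the second and -3.41 on the third, adjusted p = 5.65e-08), as did Etv4 (-2.37 on the first day, -3.22 on the second and -3.37 on the third, adjusted p = 4.36e-05) and Artn (-3.09 on the first day, -3.55 on the second and -4.30 on the third, adjusted p = 3.05e-05). In all 6 the direction was the same on each day.

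**Figure D4:**
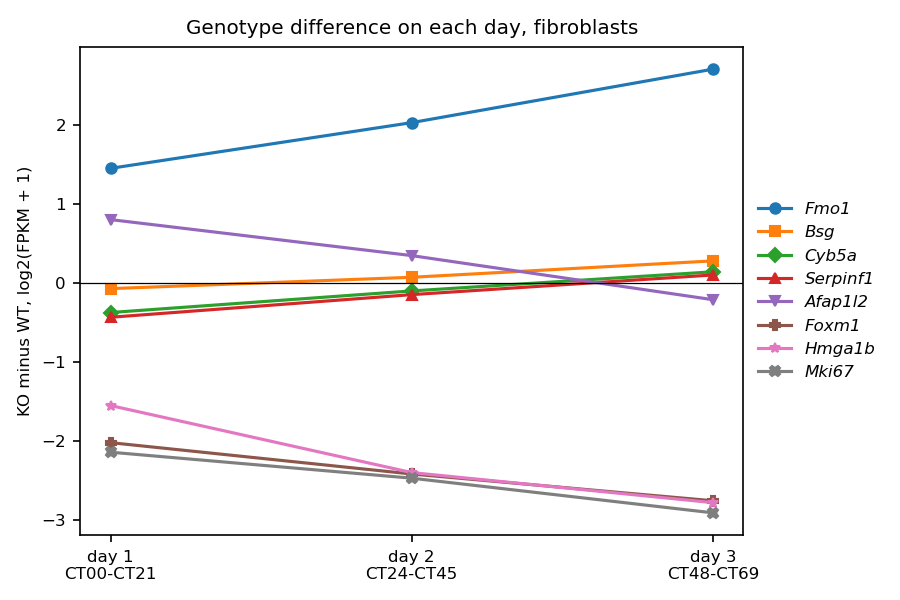
KO minus WT difference on the log2(FPKM + 1) scale on each of 3 days of 8 time points for the 8 genes with the smallest p for genotype by day, with 1 line per gene. Fmo1 widened upward from 1.45 to 2.71, Mki67, Foxm1 and Hmga1b widened downward, and the lines of Bsg, Cyb5a, Serpinf1 and Afap1l2 crossed 0.

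The same genotypes were also measured as liver slices, pieces of liver tissue kept in culture. Like the fibroblasts, the slices were given dexamethasone at the same dose and duration, with the same delay before the first harvest. The slices were sampled at the same 24 times. Of 14566 genes tested there, 176 were called higher (1.21%) and 588 lower (4.04%), or 5.25% in all. After rescaling of the libraries, which moved the median of all genes by 0.34, the counts were 308 and 212. Of the 1005 genes called lower in fibroblasts that could be tested in slices, 95 were called lower there too (9.45%, and 25.1% of the slice calls lower that were tested in both) and 10 higher. Of the 666 called higher, 11 were called higher in slices (1.65%, and 19% of those slice calls) and 36 lower. These tables were normalized separately, so no test was run across them.

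Some genes were called the same way in both cultures. Ccl2, a chemokine that attracts monocytes, fell from 177 to 24.8 FPKM in fibroblasts (-2.77 ± 0.08) and from 97.8 to 26.3 FPKM in slices (-1.68 ± 0.25). Ccl7 fell by a difference of -2.52 ± 0.04 in fibroblasts and -1.88 ± 0.28 in slices, and Ccl9 by -3.33 ± 0.14 and -2.27 ± 0.29. Cxcl14, another chemokine, differed by -1.57 ± 0.07 and -1.78 ± 0.20. The chemokines Cxcl9 and Cxcl10, called lower in fibroblasts, were not called in slices (0.13 ± 0.14 and 0.46 ± 0.21). Macrophage markers moved with these values in slices: 7 of 9 macrophage and leukocyte markers were called lower there and none higher, and their summed level was 247 to 2570 FPKM in WT (median 471) and 102 to 327 in KO (median 191). Cd68, a lysosomal macrophage marker, differed by -1.20 ± 0.16. The part of macrophages in the slice values was not tested. The metalloreductase Steap4 fell in both (-3.32 ± 0.06 and -1.65 ± 0.26). Lpl (2.21 ± 0.06 and 1.58 ± 0.26) and the cytochrome P450 gene Cyp2f2 (1.65 ± 0.07 and 1.77 ± 0.20) rose in both. The slice differences of the 11 plotted genes had SEs of 0.07 to 0.29, and the KO value was on the called side at 22 to 24 of the 24 time points. Their adjusted p values in limma were at most 5.78e-06, and the slice ranges of the genotypes overlapped for all of them but Nr1d2.

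**Figure D5:**
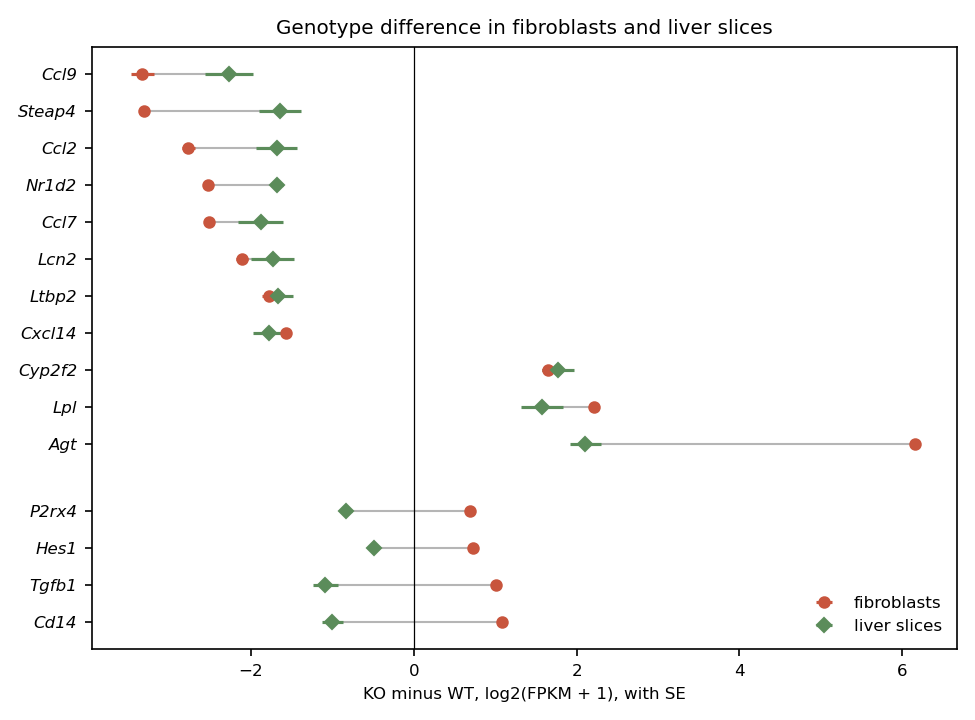
KO minus WT difference on the log2(FPKM + 1) scale with its SE for 11 genes called the same way in fibroblasts (circles) and liver slices (diamonds), and below the gap for 4 genes that lay on opposite sides of 0 at every time point. Tgfb1 was 1.01 in fibroblasts and -1.09 in slices, and Ltbp2 was close in both.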

How the data were processed

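Mouse skin fibroblasts and liver slices of 2 genotypes were measured by poly(A) RNA sequencing (50 bp single-end reads, stranded kit, per the labels' protocols). The authors deposited FPKM with a status flag per gene and time point, made with TopHat2 2.1.0 and Cuffdiff on GRCm38, per the submitters' processing notes and the file headers. Each column joins 3 runs, so replicate spread and depth are unknown. From these FPKM, genes with a mean of 1 or more and status OK in all 48 columns were tested on log2(FPKM + 1) with limma 3.58.1 in R 4.3.3 (variance trend, time point as a block of 24 levels). A genotype by day term (moderated F test, 2 degrees of freedom) tested whether the difference changed over the 3 days. p-values were adjusted by Benjamini-Hochberg over all genes tested. A call needed an adjusted p under 0.05 and a difference of at least 1. Taken across genes, the deviations of same-time columns from their genotype means were not correlated (-0.065 to 0.1, 1 of 24 pairs over 0.1). This does not tell whether single genes changed over time together in both lines. In simulated fibroblast data of 15065 genes, 49 of 50 genes with a log2 difference of 2 were called, and the day test passed 55 of 100 genes with a shift of 0.5 and 11 of 14865 without one. The simulated noise was independent between columns. Measured values drifted over time, as Ptn did in WT from 741 FPKM at CT00 to 328 at CT69. These rates therefore need not hold for the measured data.

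The members and the 45 gene lists were chosen with earlier results of these data known. Genes were named by a fixed rule: the clock genes, the 15 highest and 15 lowest, up to 5 called members per list whose higher genotype averaged 5 FPKM or more (plus 2 in the smaller direction and 2 uncalled), 12 called in both cultures and 8 by day. Some genes picked by this rule are not reported here. Symbols came from a gene table, and coordinates from the GENCODE annotation of GRCm38. Alternatives were another pseudocount, filters, rescaling, other blocks, size limits, and leaving out days or time points.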

Additional observations from a re-analysis of the deposited data

Results flagged for a closer look

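Several genes lay on opposite sides of WT in the 2 cultures at every time point, a difference that was not tested because the tables were normalized separately. Tgfb1 differed by 1.01 ± 0.03 in fibroblasts and -1.09 ± 0.15 in slices, where its median was 57.9 FPKM in WT and 27.1 in KO. The Notch target Hes1 differed by 0.73 ± 0.05 and -0.493. The ATP-gated channel P2rx4 differed by 0.69 ± 0.03 and -0.831. Cd14, the lipopolysaccharide coreceptor, differed by 1.08 ± 0.05 (0.98 without the third day, under the size limit) and -1. Cd14 is one of the 7 macrophage and leukocyte markers, of 9, called lower in slices, and the part of macrophages in these values was not tested. In slices the median of all genes was itself -0.34, and after rescaling fewer genes were called lower there (212 in place of 588).

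The genotype difference changed between days for 8 named genes, as tested by genotype by day in limma. Serpinf1, an antiangiogenic serpin, went from -0.43 to 0.10 (adjusted p = 9.97e-09), its KO mean rising from 1382 ± 114 to 2160 ± 138 FPKM (SD, 8 time points a day) beside 1863 ± 90.1 and 2010 ± 73.7 in WT. The surface glycoprotein gene Bsg went from -0.07 to 0.28 (adjusted p = 9.97e-09) and Cyb5a, a cytochrome, from -0.37 to 0.14 (adjusted p = 1.46e-08). The proliferation genes Mki67 and Foxm1 went from -2.14 to -2.91 (adjusted p = 1.09e-08) and from -2.02 to -2.76 (adjusted p = 1.46e-08). Hmga1b, which has a near-identical copy elsewhere in the genome and is therefore uncertain, went from -1.55 to -2.78 (adjusted p = 1.46e-08). Fmo1 widened from 1.45 to 2.71 (adjusted p = 1.19e-08), and Afap1l2 fell from 0.80 to -0.21 (adjusted p = 1.46e-08).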

How the results depend on the processing

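Counts are given as genes called higher and lower in KO. In fibroblasts, a mean of 5 FPKM or more gave 649 and 977, no size limit 5569 and 6560, and a difference of at least 2 gave 240 and 403. Without the time point as a replicate block the counts were 934 and 1479, and with a 24 h wave and a trend in place of the block 936 and 1479. Leaving out 1 time point gave 924 to 949 and 1475 to 1485, and 2907 to 3283 genes for the day test. In slices, a pseudocount of 0.1 gave 272 and 1118, rescaling 308 and 212, no size limit 889 and 9510, a difference of at least 2 gave 22 and 48, and leaving out 1 time point 154 to 194 and 543 to 664. The leave-one-out fits and the fit without the 6 least correlated slice time points were added after seeing the data. Fewer genes tested, fewer samples or another limit change these counts by construction. Rescaling of the slices moves the median, and for that change the cause was not tested. Over 6 alternatives, the 287 named genes kept their side of the limits in 1703 comparisons, gained a call in 8 and lost one in 11. The losses were of Fzd4 (0.87 without the third day), Kremen1, Tgfb1, Fgfrl1, Cebpa, Itga1, Cd14 and Acta2, all with differences near 1 as reported. Of list counts, 517 stayed within 1.5 times the reported one and 23 did not, mostly by 1 member. Depth is unknown, so low values carry no counting error.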

Other observations

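Some genes were switched between lines rather than shifted. By a limit set after the values were seen, 17 genes had at least 5 FPKM in every KO column and under 0.5 in every WT column, and 27 genes the reverse. The 17 include Foxa2, an endoderm factor, Alx4, the myelin gene regulator Myrf (0.0805, 0.158 and 0.3 FPKM in WT and 58.5, 66.3 and 73.5 in KO), the calcium sensor Vsnl1, the metabolic enzymes Aass, Aldh3a1 and Ephx2, and Cxcl15, a chemokine (33.2 FPKM in KO, 0 to 0.0341 in WT). The 27 include Hoxa9, Hoxa10, Hoxb9 and Hoxc10, Tfap2a, Prdm16, Lhx8, Zic1 and Ebf3, the muscle receptor kinase Musk, the inflammasome protease Casp1 and the small membrane protein Itm2a (66.4, 124 and 156 FPKM in WT and 0, 0.123 and 0.473 in KO).

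Snurf and Peg3, paternally expressed imprinted genes on chromosome 7, were among the 17. Snurf was listed at 0 in all 24 WT columns and read 11.9, 21.3 and 38.8 FPKM in KO, and Snrpn, which overlaps it on the same strand, was listed at 0 in WT and had a median of 3.33 in KO. Peg3 read 0 to 0.0804 FPKM in WT and 13.9, 16.1 and 25.4 in KO. The imprinted genes Dlk1 and Mest, which lie elsewhere, were measured in both lines, Dlk1 the higher in KO and Mest in WT. These genes were picked after their values were seen, and no test is given for them as a group.

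Other large differences concerned genes outside the lists. The lipopolysaccharide binding protein Lbp rose from 18.6 to 405 FPKM (4.44 ± 0.05). The transmembrane protein Tmeff2 rose from 1.01 to 86.8 FPKM (5.45 ± 0.04). Aldh1a7 rose from 0.561 to 94 FPKM (5.98 ± 0.03) and Clca3a1 from 0.164 to 26.9 FPKM, both with close paralogs that the counting could confuse. The adipokine-like C1qtnf3 fell from 91.7 to 0.138 FPKM (-6.34 ± 0.06), and the interferon-induced chemokine Cxcl9 fell from 56.9 to 0.0246 FPKM (-5.70 ± 0.06).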
